A study of Arabidopsis thaliana with 36 samples.

Results

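The genes of the chloroplast genome were examined in Arabidopsis thaliana, in leaves (called shoots in the labels) and in roots, each of the mutant opt3-2 and of the wild type Col-0. They were taken as every entry of the deposited count table whose code starts with ATCG. There were 133 such entries of 28775 in all, and 96 of them had 30 or more counts summed over the libraries, of 22735 entries that did so in the whole table. The other 37 had fewer, and 4 of those had no count at all. The entry just inside the limit was ATCG00570 with 30 counts, and ATCG00010 and ATCG00510 lay just outside with 29 counts each. The 4 groups were opt3-2 shoots, wild-type shoots, opt3-2 roots and wild-type roots. All 4 had received cadmium: per the labels, seedlings grew 11 d on plates and 22 d in hydroponic culture in days of 16 h light and 8 h dark, before 72 h of 20 µM CdCl2. Each group had 3 biological replicates, of 3 to 4 plants each, and each replicate had 3 technical replicates, which were summed. Plants without cadmium were not analysed here, so no value below measures an effect of cadmium. OPT3, the gene mutated in opt3-2, encodes a membrane transporter of the oligopeptide transporter family with a role in moving iron in the phloem, and whether opt3-2 alters the chloroplast gene readout in either organ is the comparison that the 4 groups allow.

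The chloroplast genome is a small circular genome that encodes core subunits of the photosystems and other thylakoid complexes, part of the chloroplast ribosome with its RNAs, and a chloroplast RNA polymerase. Most other chloroplast proteins are encoded in the nucleus, among them the sigma factors that guide that polymerase, a phage-type polymerase, and the RNA-binding proteins that process and protect chloroplast transcripts. Chloroplast transcripts carry no stable poly(A) tail: a short tail added there marks an RNA for decay. Libraries were made from poly(A) RNA, per the labels, so a count here reports the chloroplast RNA that came through that selection and not the level of chloroplast RNA in the tissue. Part of the chloroplast genome is an inverted repeat, in which genes are present in duplicate with the same sequence. Roots hold non-green plastids with the same genome.

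The count table gives codes without names. The reference annotation names only 6 of the codes, in notes on related nuclear genes: ATCG00430 as photosystem II reaction center protein G, ATCG00530 as a CemA-like proton extrusion protein, ATCG00660 as ribosomal protein L20, ATCG00670 as the plastid-encoded ClpP, a subunit of the chloroplast's Clp protease, ATCG00750 as ribosomal protein S11 and ATCG01310 as ribosomal protein L2. All other chloroplast genes are given by code, and gene lengths were not used, so counts of different genes are read counts and not levels to be ranked. The depth was 21262406 to 29692680 counts per library in opt3-2 shoots, 27229534 to 33221855 in wild-type shoots, 22449113 to 25141843 in opt3-2 roots and 35523985 to 36484138 in wild-type roots. Values per library are given as CPM, the library's counts scaled to its depth by edgeR with trimmed-mean (TMM) factors, and 3 counts, the limit that a count of 0 allows, correspond to 0.0706 to 0.167 CPM. As a check of the labels, OPT3 had 23.4, 17.6 and 24.1 CPM in opt3-2 shoots, against 389, 321 and 352 CPM in wild-type shoots, and 9.0, 4.56 and 4.13 CPM in opt3-2 roots, against 38.4, 48.0 and 41.4 CPM in wild-type roots. The 6 leaf markers (RBCS1A, CAB2, LHCB2.1, CA1, RCA and GAPA) summed to 26243 to 36537 CPM in the shoot libraries and 82.8 to 132 CPM in the root libraries. The 7 root markers (PYK10, CASP1 to CASP5 and TIP2;3) summed to 58.3 to 86.1 CPM in shoots and 2175 to 3470 CPM in roots, and CASP5 had no count in opt3-2 shoots.

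In shoots the chloroplast genes together took 0.144%, 0.175% and 0.260% of all counts in the opt3-2 libraries, against 0.201%, 0.239% and 0.141% in the wild-type libraries. The means were 0.193% ± 0.0600 in opt3-2 and 0.193% ± 0.0494 in wild type (SD, n = 3 each), and the groups overlapped. In roots the share was 0.00891%, 0.00636% and 0.00831% in opt3-2, against 0.00516%, 0.00581% and 0.00608% in wild type. Every opt3-2 root library lay above every wild-type root library, and the ratio of the means was 1.38. With 3 libraries against 3 no permutation test can go below a p of 0.1, so the shares are given as values. The shoot share exceeded the root share 24.5-fold in opt3-2 and 34.0-fold in wild type. In whole organs, fewer plastids or cells and less RNA in each cannot be told apart.

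Almost all of this share came from 4 genes, ATCG00950, ATCG01180, ATCG00920 and ATCG01210, which held between 80.4% and 90.1% of the chloroplast counts of each library. They form pairs of nearly equal counts: ATCG00950 and ATCG01180 had 96942 and 97370 counts over all libraries, and ATCG00920 and ATCG01210 had 50745 and 50548. ATCG00830 and ATCG01310 were also close, with 1103 and 1136 counts. Within each shoot library the first gene of the most abundant pair had between 49.5% and 50.4% of the pair's counts. For ATCG00920 in its pair the range was 49.8% to 51.0%, and for ATCG00830 in its pair it was wider, 43.9% to 52.4%. How reads that match more than one place were counted is not given in the sources used here, so the members of such a pair cannot be read as separate measurements. Summed over the other 129 chloroplast genes, the level was 261, 275 and 368 CPM in opt3-2 shoots, against 228, 265 and 237 CPM in wild-type shoots. In roots that sum was 11.1, 8.42 and 12.1 CPM in opt3-2, against 8.77, 8.82 and 9.12 CPM in wild type. The ranges overlapped in both organs.

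**Figure D1:**
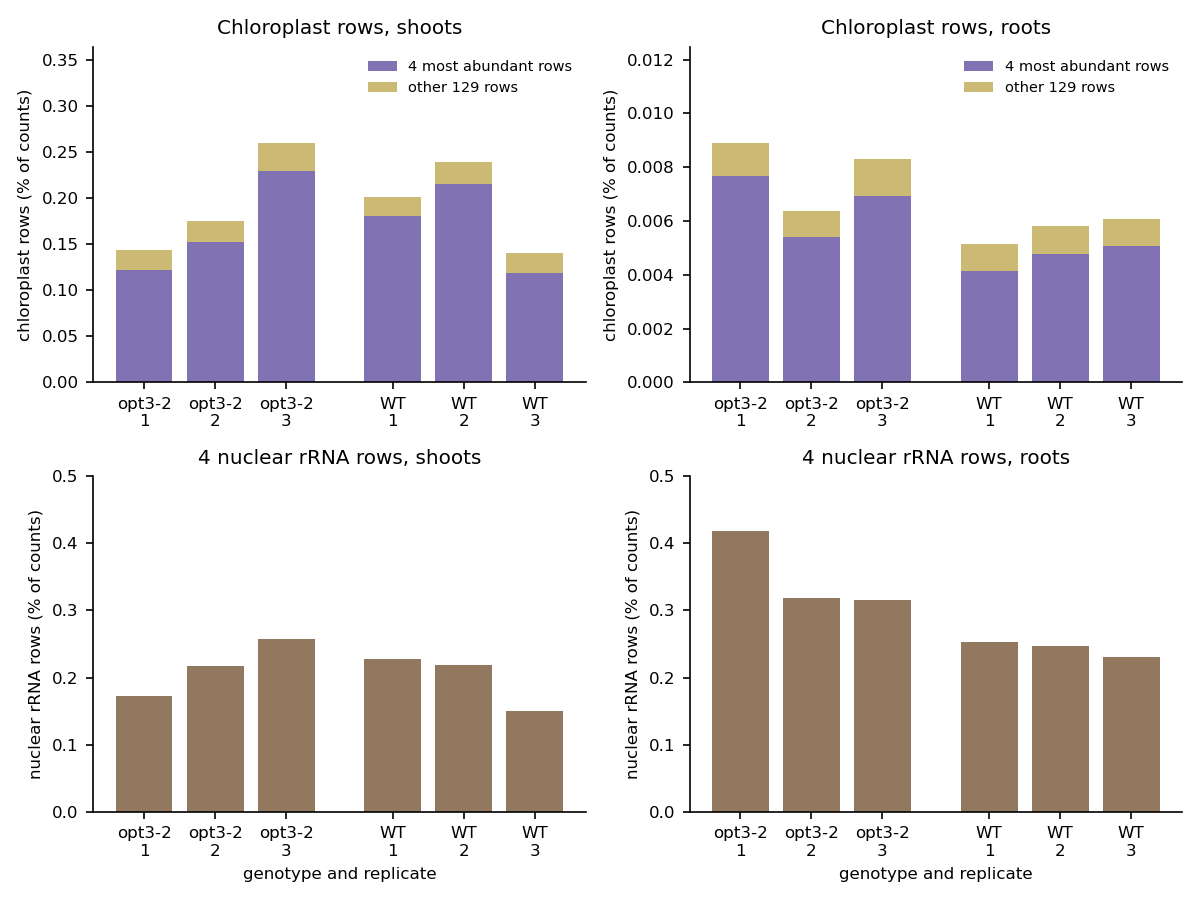
Upper panels: share of each library's counts on chloroplast genes (%, linear axis), split into the 4 most abundant genes and the other 129, in shoots (left) and roots (right). Lower panels: the share on 4 nuclear ribosomal RNA genes in the same libraries. The shoot shares of opt3-2 (0.144% to 0.260%) and wild type (0.141% to 0.239%) overlap, and the root shares of opt3-2 (0.00636% to 0.00891%) lie above those of wild type (0.00516% to 0.00608%).

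The 4 nuclear ribosomal RNA genes, whose transcripts also lack a poly(A) tail, were summed as a second readout of RNA selection. They took 0.172%, 0.217% and 0.257% of counts in opt3-2 shoots, against 0.227%, 0.218% and 0.150% in wild-type shoots. In each genotype the shoot library with the lowest chloroplast share also had the lowest ribosomal share. In roots the ribosomal share was 0.419%, 0.318% and 0.316% in opt3-2, against 0.254%, 0.247% and 0.231% in wild type, so it too was higher in every opt3-2 root library. The 4 genes did not move together there: 2 were higher and 2 lower in opt3-2 roots (edgeR adjusted p below 0.05). Their sum is thus not a uniform readout. Within the root groups the order differed: replicate 2 of opt3-2 roots had the lowest chloroplast share but replicate 3 the lowest ribosomal share, and in wild-type roots the library with the lowest chloroplast share had the highest ribosomal share. Between organs the shares went opposite ways, with the chloroplast share higher and the ribosomal share lower in every shoot library than in every root library of the same genotype. The mitochondrial genes took 0.0831% to 0.107% in opt3-2 roots and 0.0335% to 0.0343% in wild-type roots. The part of RNA selection in the chloroplast values was not tested.

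Shoots had more chloroplast reads than roots for nearly every gene. Of the 96 chloroplast genes, 93 were higher in shoots than in roots in opt3-2 and 92 in wild type (edgeR's quasi-likelihood test, Benjamini-Hochberg adjusted p below 0.05 over all genes tested), 90 of them in both, and none was lower. Over all 22735 genes tested, 40.1% were higher and 42.8% lower in shoots in opt3-2, and 38.0% were higher and 38.8% lower in wild type. Most of the 96 reached the limit of 30 counts through shoot reads, since their root counts were low. That limit thus favoured genes higher in shoots, and the counts of 93 and 92 depend on it. The shares of counts given above used all 133 entries and no such limit. The median log2 fold change, shoots over roots, was 4.67 in opt3-2 and 4.51 in wild type, against -0.06 and -0.01 over all genes. Among genes with a root count, the log2 fold changes ran from 1.1 to 7.55 in opt3-2 and from 0.46 to 7.66 in wild type.

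The root counts behind these ratios were low. In opt3-2 roots 89 of the 96 genes had fewer than 30 counts over the 3 libraries, and in wild-type roots 84 had. A gene with no root count gives only a lower bound: 7 genes had none in opt3-2 roots and 9 had none in wild-type roots, and 5 had none in either. Against 3 counts over the group, these were at least 5.52-fold (ATCG00570) to at least 16.1-fold (ATCG00300) higher in shoots in opt3-2, and at least 8.35-fold (ATCG01070) to at least 105-fold (ATCG00080) higher in wild type. With such genes set at their bound, the median log2 fold change was 4.18 in opt3-2 and 4.31 in wild type. The 96 genes were also split at the median of their mean CPM over all libraries. Leaving the 4 most abundant genes aside, the 44 genes above it had medians of 5.12 in opt3-2 and 4.69 in wild type. The 48 below it had 3.26 and 3.43, with the same bounds. Shoot libraries make up most of that mean CPM, and a bound grows with the shoot counts. The split thus sorts in part by the shoot level itself, so the gap between its parts is partly built in.

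**Figure D2:**
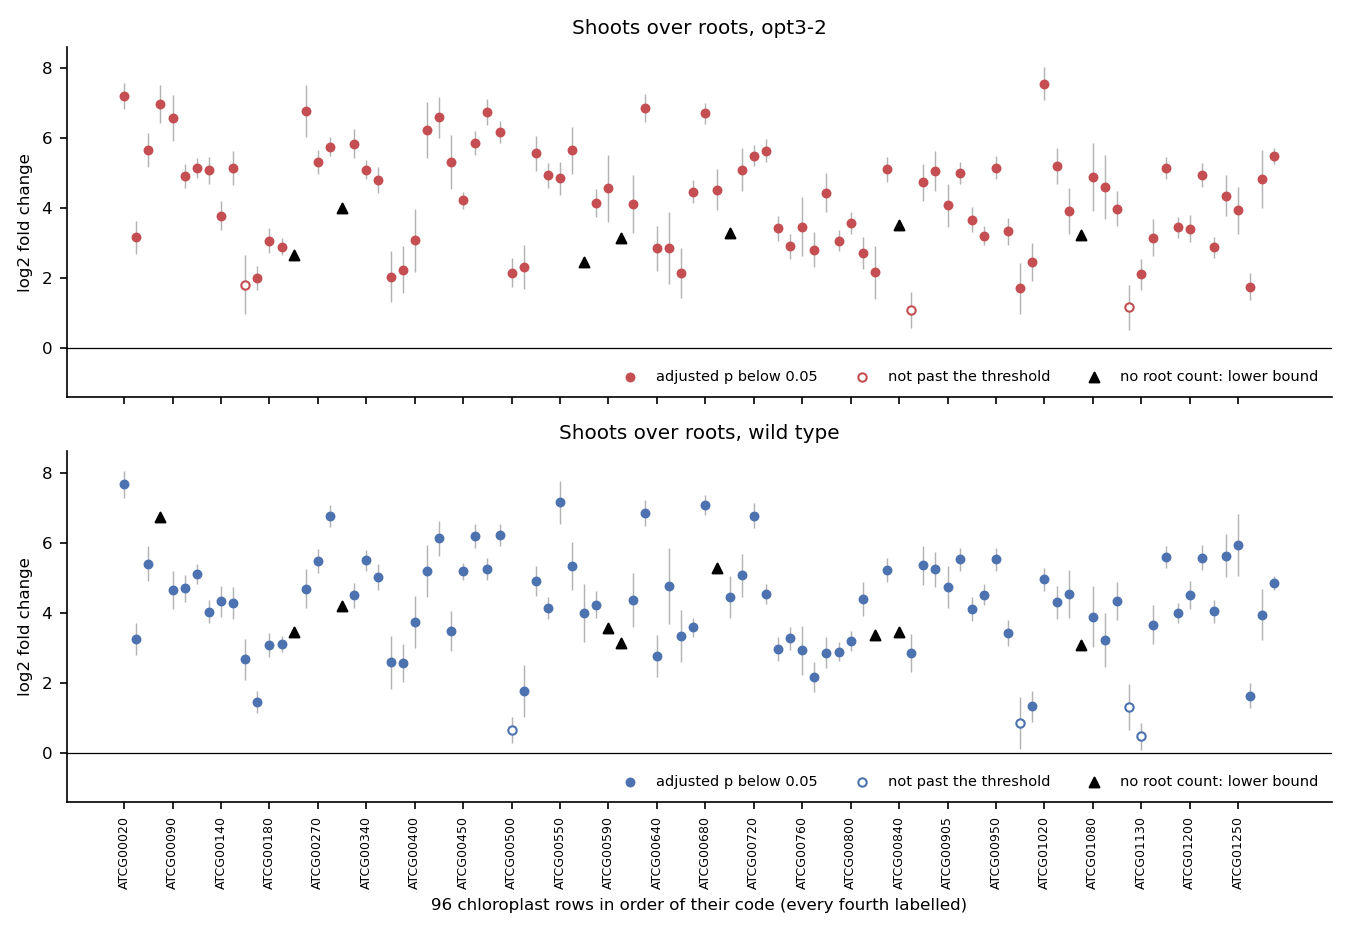
Log2 fold change of shoots over roots for the 96 chloroplast genes in the order of their codes, in opt3-2 (upper) and wild type (lower); bars are standard errors, filled points had an adjusted p below 0.05, and triangles are lower bounds for genes with no root count. All points lie above 0, and 93 genes in opt3-2 and 92 in wild type passed the test.

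ATCG00020 had the most reads after the 4 dominant genes and a far larger ratio than they had. It gave 59.4, 56.4 and 79.6 CPM in opt3-2 shoots, against 0.869, 0.173 and 0.317 CPM in opt3-2 roots. In wild type it gave 54.8, 76.5 and 43.5 CPM in shoots, against 0.338, 0.259 and 0.251 CPM in roots. The log2 fold change, shoots over roots, was 7.21 ± 0.38 (SE) in opt3-2 and 7.66 ± 0.38 in wild type. For the 4 dominant genes it was 4.95 to 5.15 in opt3-2 and 5.52 to 5.59 in wild type.

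Where a group's mean reached 5 CPM or more, ATCG00630 and ATCG00680 also stood high. ATCG00630 had 6.82, 10.2 and 14 CPM in opt3-2 shoots, against 0.0395, 0.0690 and 0.141 CPM in opt3-2 roots, a log2 fold change of 6.86 ± 0.40; in wild type it was 6.85 ± 0.37. ATCG00680 had 7.39, 7.12 and 6.76 CPM in wild-type shoots, against 0.0242, 0.0471 and 0.0754 CPM in wild-type roots, a log2 fold change of 7.07 ± 0.29. Both rest on few root counts: 1, 2 and 4 in opt3-2 and 5, 2 and 2 in wild type for ATCG00630. ATCG00680 had 1, 2 and 3 in wild-type roots. The 95% counting intervals of the fold for ATCG00630 were 57.7 to 299 in opt3-2 and 64.3 to 269 in wild type. For ATCG00680 in wild type the interval was 66.5 to 399. ATCG01020 had the largest ratio in opt3-2, but on 2 root counts: its shoot level was 223-fold the root level, with a 95% counting interval of 61.3 to 1849. In wild type, with 17 root counts, it was 32.2-fold (19.8 to 55.8), among the 3 smallest of the genes at this level.

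At the other end, ATCG00190 had the smallest ratio at that level in both genotypes. It gave 9.25, 7.31 and 12 CPM in opt3-2 shoots, against 1.70, 0.966 and 1.20 CPM in opt3-2 roots, and 8.63, 10.2 and 13.5 CPM in wild-type shoots, against 1.14, 1.34 and 1.28 CPM in wild-type roots. Its log2 fold changes were 2.90 ± 0.25 and 3.10 ± 0.24, and relative to the sum of chloroplast counts in the same library it was lower in shoots than in roots, by -2.10 in opt3-2 and -2.21 in wild type (log2). The next smallest were ATCG00450 (4.23 ± 0.24) and ATCG00350 (4.80 ± 0.37) in opt3-2, and ATCG01310, ribosomal protein L2 (4.85 ± 0.21), and ATCG01020 (4.96 ± 0.33) in wild type.

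In all, 6 genes missed the threshold in one genotype or both. ATCG01110 did so in both, with log2 fold changes of 1.16 (edgeR adjusted p = 0.107) in opt3-2 and 1.31 (0.0873) in wild type, on 16 shoot and 9 root counts in opt3-2 and 14 and 8 in wild type. ATCG00160 (1.81) and ATCG00860 (1.1) missed it in opt3-2, with edgeR adjusted p = 0.0626 and 0.0656. ATCG01130 (0.46), ATCG00500 (0.66) and ATCG01000 (0.83) missed it in wild type.

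Between genotypes in shoots, 7 of the 96 chloroplast genes were higher in opt3-2 and none was lower, at an adjusted p below 0.05. This is 7.29% of them, against 20.4% of all genes tested that were higher and 21.8% that were lower. At an unadjusted p below 0.05 there were 15, of which 1 was lower, and DESeq2 called 7 and limma-voom 9, all higher. No share over all genes is given for these counts, so they are not set against other genes. The values nevertheless leaned one way: 77 of the 96 log2 fold changes were above 0 and 19 below, with a median of 0.37 against 0 over all genes. In 24 of the 96 the 3 opt3-2 libraries all lay above the 3 wild-type libraries, near the 25.5% of all genes that did so, and in 1, ATCG00380, named after its values were seen, all lay below, against 26.2% of all genes. Replicate 3 of opt3-2 shoots had the highest value of the 6 shoot libraries for 55 of the 96 genes, and without it the median was 0.16, 64 of 93 genes lay above 0, and 3 were called. Without replicate 1 of wild-type shoots, 4 were called.

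**Figure D3:**
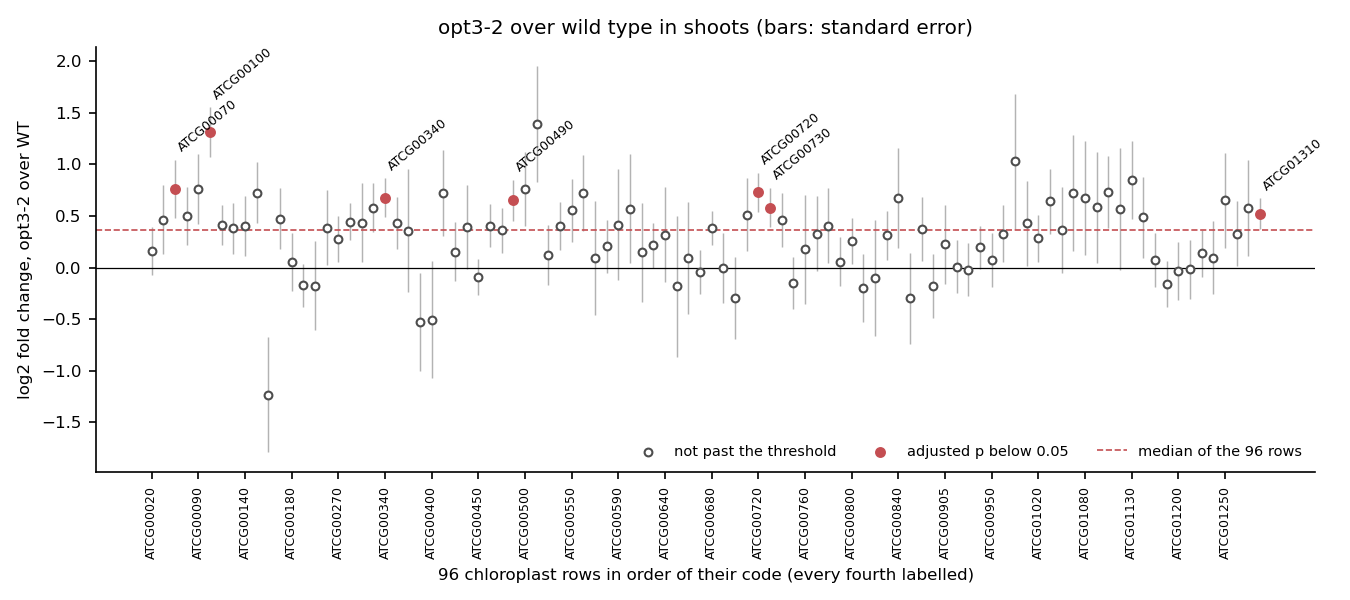
Log2 fold change of opt3-2 over wild type in shoots for the 96 chloroplast genes in the order of their codes, with standard errors; filled points had an adjusted p below 0.05 and the dashed line is the median, 0.37. The 7 filled points lie between 0.52 and 1.31, and most open points lie above 0.

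The gene with the largest called difference was ATCG00100. It had 2.86, 3.24 and 4.11 CPM in opt3-2 shoots, against 1.20, 1.53 and 1.35 CPM in wild-type shoots. Its log2 fold change was 1.31 ± 0.24 (SE, edgeR adjusted p = 0.000937), and it stayed past the threshold with any single library left out. With technical replicate 1 alone its call was lost, with a log2 fold change of 0.81 (edgeR adjusted p = 0.107). ATCG00720 had 4.47, 4.63 and 6.26 CPM in opt3-2 shoots, against 2.97, 3.37 and 2.90 CPM in wild-type shoots. Its log2 fold change was 0.73 ± 0.19 (edgeR adjusted p = 0.00855), and its call held in all 22 alternative analyses.

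The next called genes had smaller ratios on more reads. ATCG00490 had 17.6, 20.1 and 29.2 CPM in opt3-2 shoots, against 15.2, 15.4 and 12 CPM in wild-type shoots, with a log2 fold change of 0.65 ± 0.20 (edgeR adjusted p = 0.0203). ATCG00340 had 7.80, 7.64 and 9.90 CPM in opt3-2 shoots, against 5.2, 6.2 and 4.48 CPM in wild-type shoots, with 0.67 ± 0.19 (edgeR adjusted p = 0.0127). In both, the groups did not overlap. Both calls were lost without replicate 3 of opt3-2 shoots (edgeR adjusted p = 0.0974 for ATCG00490 and 0.0560 for ATCG00340) and without replicate 3 of wild-type shoots (0.0765 and 0.0547).

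ATCG01310, ribosomal protein L2 of the chloroplast ribosome, was the only called gene with a name. It had 8.12, 8.37 and 10.1 CPM in opt3-2 shoots, against 5.74, 6.03 and 6.73 CPM in wild-type shoots, a log2 fold change of 0.52 ± 0.15 (edgeR adjusted p = 0.0128). ATCG00830, its partner of nearly equal counts, had 6.35, 7.59 and 10.2 CPM in opt3-2 shoots, against 5.62, 6.64 and 7.12 CPM in wild-type shoots, overlapping, with 0.31 (edgeR adjusted p = 0.319). The L2 call was lost without replicate 3 of opt3-2 shoots (edgeR adjusted p = 0.0565) or replicate 1 of wild-type shoots (0.0540).

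The last of the 7 had low counts. ATCG00730, the neighbour of ATCG00720 by code, had 2.86, 3.07 and 3.78 CPM in opt3-2 shoots, against 2.02, 2.08 and 2.37 CPM in wild-type shoots, a log2 fold change of 0.58 ± 0.19 (edgeR adjusted p = 0.0277). ATCG00070 had 1.96, 1.84 and 2.29 CPM in opt3-2 shoots, against 1.36, 1.06 and 1.19 CPM in wild-type shoots, with 0.76 ± 0.28 (edgeR adjusted p = 0.0456). Neither group pair overlapped. ATCG00730 lost its call without replicates 2 or 3 of opt3-2 shoots or replicates 1 or 2 of wild-type shoots, with edgeR adjusted p between 0.0508 and 0.108. ATCG00070 lost its call without any one of the 6 shoot libraries or without replicate 3 of opt3-2 roots, with edgeR adjusted p between 0.0584 and 0.123. ATCG00100, ATCG00730 and ATCG00070 lie under 5 CPM in every group and were named after their values were seen.

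**Figure D4:**
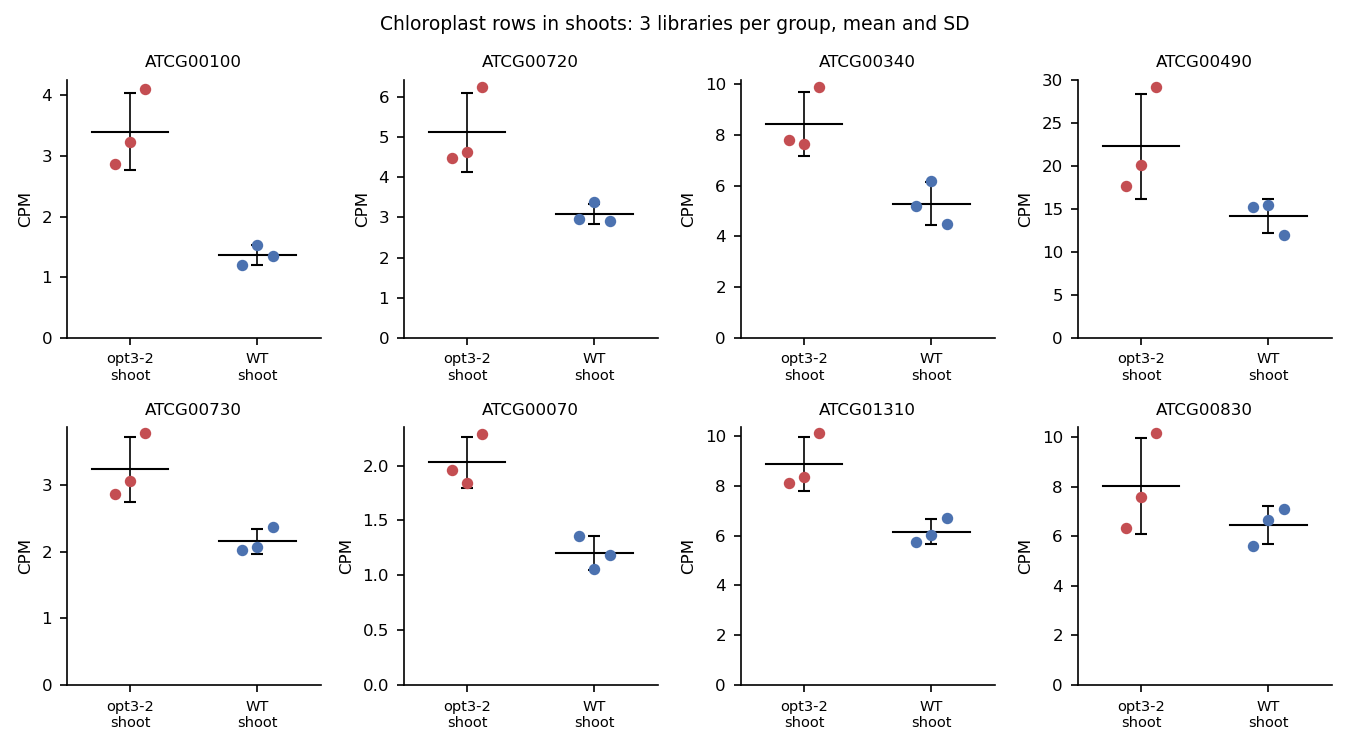
CPM of the 7 chloroplast genes called higher in opt3-2 shoots, and of ATCG00830, the near-equal partner of ATCG01310, in each of 3 libraries per genotype (points), with the mean and SD (bars; linear axes from 0). The groups are apart in the 7 called genes and overlap in ATCG00830.

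The genes that carry most of the reads did not pass the test in shoots. ATCG00950 had 469, 591 and 899 CPM in opt3-2 shoots, against 630, 795 and 440 CPM in wild-type shoots. ATCG00920 had 244, 309 and 453 CPM in opt3-2 shoots, against 385, 403 and 211 CPM in wild-type shoots. Libraries of each genotype thus differed from each other by more than the genotypes did, and their partners ATCG01180 and ATCG01210 behaved alike. The log2 fold changes of the 4 were between -0.02 and 0.07 with standard errors of 0.26 to 0.28, and edgeR adjusted p between 0.855 and 0.990. Their sign turned with the scaling or with single libraries left out. ATCG00020 had a log2 fold change of 0.16 ± 0.23 (edgeR adjusted p = 0.617).

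The other genes named in the reference did not pass the test in shoots either. ClpP (ATCG00670) had 2.67, 3.29 and 3.22 CPM in opt3-2 shoots, against 2.89, 3.20 and 3.33 CPM in wild-type shoots, with a log2 fold change of -0.05 and overlapping groups. Photosystem II protein G (ATCG00430) had 1.14, 2.01 and 1.63 CPM in opt3-2 shoots, against 1.36, 1.26 and 1.62 CPM in wild-type shoots, with 0.15. The CemA-like protein (ATCG00530) had 0.12, ribosomal protein L20 (ATCG00660) had 0.09 on 25 and 31 counts per group, and ribosomal protein S11 (ATCG00750) had -0.15. The lowest log2 fold change, -1.23 for ATCG00160, picked out after its values were seen, came from 5, 2 and 2 counts in opt3-2 shoots, against 4, 11 and 13 in wild-type shoots, and did not pass (edgeR adjusted p = 0.0970).

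The 6 nuclear leaf markers, genes of photosynthesis, summed to 35195 to 36537 CPM in opt3-2 shoots and 26243 to 31372 CPM in wild-type shoots, and the groups did not overlap. Of the 6, 2 were higher in opt3-2, CA1 (a carbonic anhydrase, log2 fold change 0.85) and RCA (Rubisco activase, 0.52), and 4 did not pass the test, against 20.4% higher over all genes. The 7 root markers summed to 58.3 to 64.0 CPM in opt3-2 shoots and 75.7 to 86.1 CPM in wild-type shoots. The part of organ or cell make-up in the chloroplast values was not tested.

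In roots, 2 of the 96 chloroplast genes were higher in opt3-2 and 1 was lower at an adjusted p below 0.05, against 16.8% and 20.8% of all genes tested. At an unadjusted p below 0.05 there were 11, for which no share over all genes is given. Root counts were low in most of the 96, which limits what this test can detect. The log2 fold changes were above 0 in 57 genes and below 0 in 34, with 5 at 0 in both genotypes and a median of 0.33, against -0.01 over all genes. Without replicate 3 of opt3-2 roots the median was 0.15 and 1 gene was called, and without replicate 2 of wild-type roots it was 0.21 with 1 called. Without replicate 2 of opt3-2 roots 5 genes were called. The 3 opt3-2 libraries lay above the 3 wild-type libraries in 10 of 96 genes, against 23.5% of all genes, and below them in 3, against 28.5%.

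All 3 called differences in roots rest on few reads. ATCG00940 had 8, 8 and 13 counts in opt3-2 roots, against 7, 4 and 4 counts in the deeper wild-type root libraries. In CPM this was 0.316, 0.276 and 0.458 against 0.169, 0.0941 and 0.101, with no overlap and a log2 fold change of 1.5 ± 0.39 (edgeR adjusted p = 0.0106). ATCG00720, which was also higher in opt3-2 shoots, had 4, 4 and 1 counts in opt3-2 roots, against 1, 1 and 1 in wild-type roots, with 1.99 ± 0.65 (edgeR adjusted p = 0.0398). ATCG01020 had 2, 0 and 0 counts in opt3-2 roots, against 5, 8 and 4 in wild-type roots, with -2.31 ± 0.82 (edgeR adjusted p = 0.0433).

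None of the 3 calls held with every single library left out, nor with technical replicate 1 alone, where the log2 fold change was 0.096 for ATCG00940 (edgeR adjusted p = 0.950), 3.27 for ATCG00720 (0.0888) and -0.32 for ATCG01020 (0.889). ATCG00720 lost its call without replicate 1 or 2 of opt3-2 roots or any wild-type root library (edgeR adjusted p between 0.0700 and 0.155). ATCG01020 lost its call without replicate 2 or 3 of opt3-2 roots (edgeR adjusted p = 0.139 for both), without replicate 1 or 2 of wild-type roots (0.0635 and 0.123), and without replicate 1 of opt3-2 shoots or any wild-type shoot library, where it was between 0.0508 and 0.0539. ATCG00940 lost its call without replicate 3 of opt3-2 roots (edgeR adjusted p = 0.0548). With DESeq2 ATCG00720 and ATCG01020 were not called (DESeq2 adjusted p = 0.0632 and 0.0608), nor was ATCG00720 with limma-voom (limma-voom adjusted p = 0.0625). ATCG00940 kept its call with both tools. The dominant genes had log2 fold changes of 0.44 to 0.60 in roots with edgeR adjusted p between 0.172 and 0.254. ATCG00950, for example, had 21.5, 13.9 and 19.6 CPM in opt3-2 roots, against 12, 13.0 and 15.4 CPM in wild-type roots, which overlapped.

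Whether the mutant's effect differed between organs was tested for each gene as the log2 fold change in shoots minus that in roots. Of the 96 genes, 4 passed, 3 upward and 1 downward, against 46.4% of all genes tested. An unadjusted p below 0.05 was reached by 9, for which no share over all genes is given. Root counts were low in most of the 96, so the small number does not show that the effects were alike in both organs. ATCG01020 had a difference of 2.60 ± 0.85 (edgeR adjusted p = 0.0248): in shoots it had 5.41, 4.18 and 6.40 CPM in opt3-2, against 3.88, 4.26 and 5.01 CPM in wild type, which overlapped, while in roots it was nearly without counts in opt3-2. ATCG00940 had a difference of -1.31 ± 0.45 (edgeR adjusted p = 0.0303), with 3.10, 3.35 and 3.41 CPM in opt3-2 shoots, against 2.60, 3.71 and 2.27 CPM in wild-type shoots.

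ATCG01130 and ATCG00500 leaned to opt3-2 in shoots and to wild type in roots, with neither comparison of the genotypes past the threshold. ATCG01130 had 19, 14 and 22 counts in opt3-2 shoots, against 5, 15 and 20 in wild-type shoots, and 6, 4 and 6 in opt3-2 roots, against 9, 16 and 17 in wild-type roots. Its difference was 1.64 ± 0.60 (edgeR adjusted p = 0.0393). ATCG00500 had 17, 8 and 15 counts in opt3-2 shoots, against 11, 10 and 9 in wild-type shoots, and 6, 3 and 2 in opt3-2 roots, against 9, 8 and 11 in wild-type roots, a difference of 1.5 ± 0.57 (edgeR adjusted p = 0.0489). The next gene by p, ATCG00820, had no count in wild-type roots and did not pass (edgeR adjusted p = 0.0605). With one library left out, between 0 and 5 chloroplast genes passed: none without replicate 3 of opt3-2 roots or replicate 2 of wild-type roots, 1 without replicate 3 of wild-type roots and 2 without replicate 2 of wild-type shoots.

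**Figure D5:**
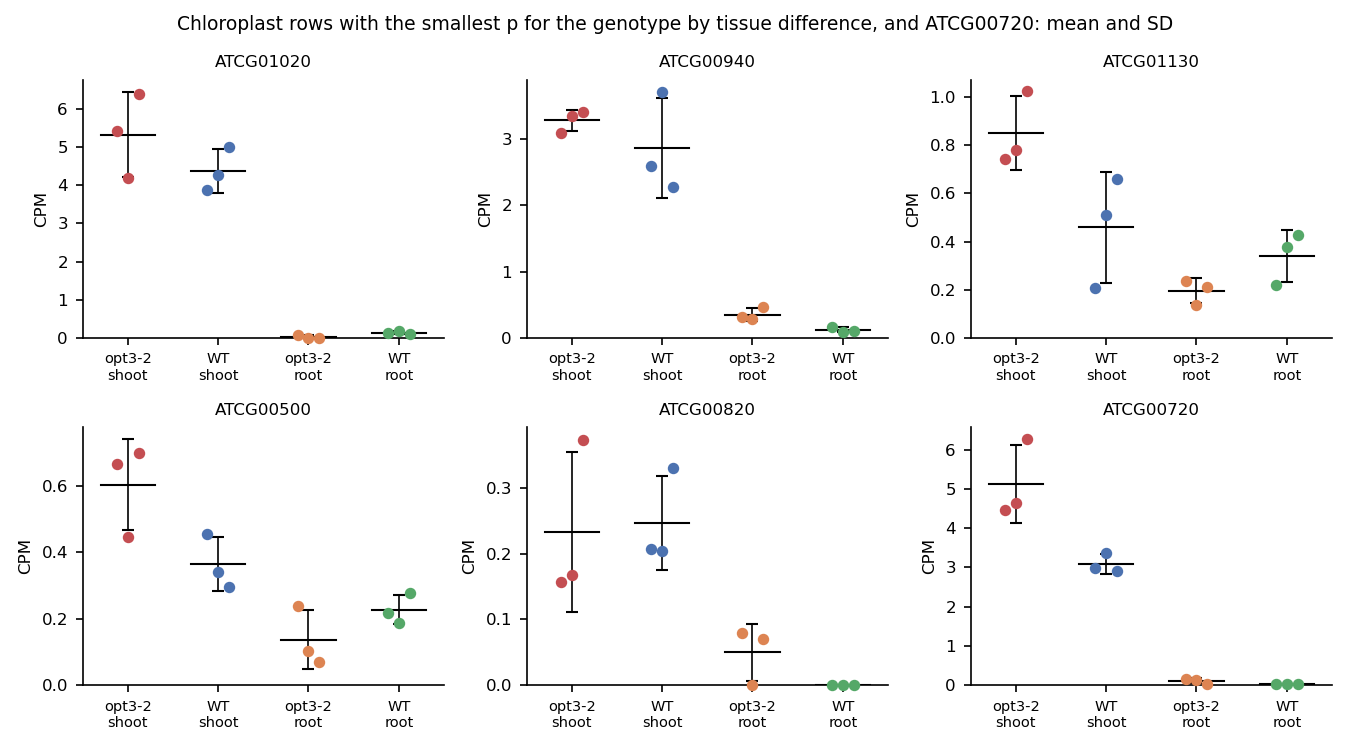
CPM in each of 3 libraries per group (points; mean and SD as bars; linear axes from 0) for the 5 chloroplast genes with the smallest p for the difference between the shoot and root effects of opt3-2, and for ATCG00720. In ATCG01020 and ATCG00940 the genotypes overlap in shoots and are apart in roots.

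Nuclear genes whose products run or partner the chloroplast genome were counted by list, beside the 20.4% higher and 21.8% lower in shoots and the 16.8% higher and 20.8% lower in roots over all genes. Of 31 nuclear subunits of the complexes that also hold chloroplast-encoded subunits, 23 were higher in opt3-2 shoots and none was lower, with a median log2 fold change of 0.47 against 0 over all genes. PSAN, a subunit of photosystem I, had 1608 ± 75 CPM in opt3-2 shoots and 797 ± 140 CPM in wild-type shoots (SD, n = 3 each; log2 fold change 1.01 ± 0.13, edgeR adjusted p = 0.000104). PDE334, a nuclear ATP synthase subunit, had 0.49, and NdhM, of the chloroplast NADH dehydrogenase-like complex, had 0.67. In roots 5 of the 31 were higher in opt3-2, among them NdhO (1.09) and PSAD-1 (0.68), and 1 was lower, PDE334 (-0.27).

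Of 20 nuclear genes of chloroplast transcription, opt3-2 shoots had 6 higher and 3 lower, and opt3-2 roots had 1 higher and 7 lower. FLN1, a protein of the chloroplast transcription complex, had 16.7 ± 0.910 CPM in opt3-2 shoots and 26.1 ± 1.61 CPM in wild-type shoots (SD, n = 3 each; -0.65 ± 0.08, edgeR adjusted p = 7.09e-05). The sigma factor genes SIGA and SIG2 were higher in opt3-2 shoots, with log2 fold changes of 0.46 and 0.34. In opt3-2 roots the sigma factor genes SIGC and SIGF were lower, each with -0.58, and so was PDE312 (-0.39).

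Of 17 nuclear genes of chloroplast RNA maturation and decay, opt3-2 shoots had 9 higher and none lower, and opt3-2 roots had 1 higher and 7 lower. PGR3, a pentatricopeptide repeat protein that binds chloroplast transcripts, had 75.9 ± 4.23 CPM in opt3-2 shoots and 45.7 ± 3.16 CPM in wild-type shoots (SD, n = 3 each; 0.73 ± 0.07, edgeR adjusted p = 1.6e-05). GUN1, of chloroplast-to-nucleus signalling, had 0.49, and HCF152, which processes chloroplast transcripts, had 0.57. In opt3-2 roots HCF107, which protects chloroplast transcripts, was higher (0.79 ± 0.15, edgeR adjusted p = 0.00141), while EMB2730, a chloroplast exoribonuclease, and CP29, an RNA-binding protein, were lower (-0.34 and -0.48). Of 29 nuclear chloroplast ribosomal proteins, opt3-2 shoots had 5 higher and 2 lower, and opt3-2 roots had none higher and 16 lower, for example RPS9 (-0.50 ± 0.08, edgeR adjusted p = 0.000424), emb2184 (-0.28) and RPL4 (-0.37). All genes of these 4 lists were higher in shoots than in roots in both genotypes except AT5G15700 of the transcription list, which was lower. The median log2 fold change, shoots over roots, of the 31 photosynthesis subunits was 8.35 in opt3-2 and 8.12 in wild type. It was 2.92 and 2.51 for the transcription list, 3.25 and 3.18 for RNA maturation and decay, and 3.83 and 3.52 for the ribosomal proteins. For the chloroplast genes it was 4.67 and 4.51, or 4.18 and 4.31 with genes without a root count at their bound.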

How the data were processed

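Poly(A) RNA of 12 plant samples, each in 3 technical replicates, was sequenced by the submitters with Illumina TruSeq libraries. The authors deposited one table of raw counts per gene, with 36 columns and no normalization. The submitters' processing notes name TopHat2, edgeR and the TAIR10 build without versions. The counting tool, its use of strand and its treatment of reads with several matches are not stated in any source used here. Technical replicates were summed, since over all genes they varied 1.02 to 1.06 times as much as Poisson counting. Nothing says that the biological replicates came from separate cultures, so p-values measure the spread between these samples. 

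Genes with 30 or more counts in total were tested with edgeR 4.0.16 (R 4.3.3): TMM factors, a group-means model over all 12 libraries with 8 residual degrees of freedom, robust quasi-likelihood F tests, and Benjamini-Hochberg adjustment over 22735 genes, with calls at an adjusted p below 0.05. Genes under the limit held 0.00755% of counts. The standard error is the log2 fold change divided by the square root of F. Alternatives used DESeq2 1.42.0, limma 3.58.1 and other scalings, filters and samples. The procedure was run on simulated data with the same spread setting for all genes, so that run does not cover the spread of each chloroplast gene. Counting intervals and floors of 3 counts cover counting error only.

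The RefSeq annotation of TAIR10.1 matched none of the 133 chloroplast codes by locus tag and names 6 in notes. No coordinates or sequences were used. Named genes were the 5 with the highest mean CPM, the called genes with the largest changes among those with a mean of 5 CPM in a group, the 5 smallest p for the organ difference, the 3 largest and 3 smallest organ ratios at 5 CPM, genes next to the count limit, and the 3 smallest p of each nuclear list in a comparison. Genes named beyond this are marked, or carry a name in the reference. The genes and lists were chosen with earlier results of these data known. A permutation p for the chloroplast share had been planned and is not printed.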

Additional observations from a re-analysis of the deposited data

Results flagged for a closer look

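The effect of opt3-2 differed between shoots and roots, by a test of the difference itself (edgeR's quasi-likelihood test, adjusted over all genes), in 4 chloroplast genes. These were 4 of 96, a smaller part than the 46.4% of all genes tested that passed. Outside the 4 most abundant genes, the median was 6 counts per gene over the group in opt3-2 roots and 6.5 in wild-type roots. At that depth the smaller part does not show that the effects of opt3-2 were alike in both organs. The log2 fold change in shoots minus that in roots was 2.60 for ATCG01020 (adjusted p = 0.0248), -1.31 for ATCG00940 (0.0303), 1.64 for ATCG01130 (0.0393) and 1.5 for ATCG00500 (0.0489). ATCG01020 rests on 2 counts in opt3-2 roots, against 17 in wild-type roots, and ATCG00500 on 11 against 28. ATCG01020 was lost without replicate 2 or 3 of opt3-2 roots or replicate 2 of wild-type roots (edgeR adjusted p between 0.0718 and 0.0790), and ATCG00940 without replicate 1 of opt3-2 shoots, replicate 3 of opt3-2 roots or replicates 2 or 3 of wild-type roots (0.0521 to 0.103). ATCG01130 was lost without 8 of the 12 libraries, one at a time, and ATCG00500 without 9. Over 22 alternatives, ATCG01020 was called in 18, ATCG00940 in 14, ATCG01130 in 12 and ATCG00500 in 7. With groups of 3 libraries, no group was screened for single outlying libraries.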

How the results depend on the processing

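Shoots over roots kept its count of called chloroplast genes within 1.5 times under every alternative run, with 66 to 101 called in opt3-2 and 67 to 101 in wild type (85 to 93 and 88 to 91 with one library left out). The 101 came with no filter beyond 1 count, which tests more chloroplast genes than the 96. Settings that change the filter or the libraries test other sets of genes, so these counts do not share one base. For opt3-2 against wild type in shoots, 7 genes were called in the main analysis, 2 with technical replicate 1 alone (ATCG00720 and ATCG00490), and 3 to 9 with one library left out. In roots, 3 were called, 1 with technical replicate 1 alone, and 1 to 5 with one library left out. For the organ difference, 4 were called, 2 with library sizes alone, 1 with technical replicate 1 alone, and 0 to 5 with one library left out. In the replicate block, the replicate number as a block gave 6 calls in shoots, 1 in roots and 2 for the organ difference, and the replicate block within genotype gave 2 for the organ difference. Same-numbered libraries had correlations of their deviations between -0.393 and 0.188, and differently numbered ones between -0.553 and 0.549. Deviations from a mean of 3 libraries offset each other, so these values cannot decide what same-numbered libraries shared. The labels do not say whether they shared a culture or day. Without the most abundant gene the mean share was 0.137% in wild-type shoots, 0.00573% in opt3-2 roots and 0.00420% in wild-type roots. Without the 4 most abundant genes, an alternative chosen after seeing the data, it was 0.0255%, 0.0219%, 0.00121% and 0.00102% in opt3-2 shoots, wild-type shoots, opt3-2 roots and wild-type roots. With one library of the group left out it was 0.159% to 0.217%, 0.171% to 0.220%, 0.00734% to 0.00861% and 0.00548% to 0.00594% in the same order. 

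Signs turned mostly in genes near 0. In shoots, with library sizes alone ATCG01180 had -0.0078, ATCG00950 -0.0098 and ATCG00920 -0.071, ATCG00920 had -0.011 with the replicate block, and ATCG01210 had 0.0242 with RLE size factors or DESeq2. With one library left out ATCG01180 ran from -0.23 to 0.30, ATCG00950 from -0.23 to 0.29, ATCG00920 from -0.27 to 0.19, ATCG01210 from -0.32 to 0.17 and ATCG00020 from -0.0086 to 0.41. In roots ATCG00020 had -0.11 with technical replicate 1 alone and ran from -0.21 to 1.02 with one library left out. The organ difference of ATCG00940, called at -1.31 in the main analysis, turned to 0.13 with technical replicate 1 alone (edgeR adjusted p = 0.948). That of ATCG01020 kept its sign there but fell from 2.60 to 0.61 (edgeR adjusted p = 0.799). Relative to the sum of chloroplast counts, shoots over roots gave -2.10 for ATCG00190, -0.77 for ATCG00450 and -0.20 for ATCG00350 in opt3-2, and -2.21 for ATCG00190, -0.49 for ATCG01310 and -0.34 for ATCG01020 in wild type. The cause of these changes was not tested. Library sizes alone moved the median log2 fold change of all genes to -0.49 in opt3-2 and -0.36 in wild type for shoots over roots, and the share of higher genes among all called in shoots was 48.4% with TMM, 54.6% with RLE size factors and 35.3% with library sizes alone. The share without ribosomal and transfer RNA genes and the counts by chloroplast gene class were not run, since the codes carry no class in the files. The small chloroplast share in roots left most chloroplast genes there with a few counts, although wild-type roots were the most deeply sequenced group.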

Other observations

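Of 77 mitochondrial genes tested, 20 were higher and none lower in opt3-2 shoots, and 15 were higher and none lower in opt3-2 roots (edgeR adjusted p below 0.05), beside 20.4% of all genes higher and 21.8% lower in shoots and 16.8% higher and 20.8% lower in roots. Their share of counts was 0.0219% ± 0.00143 in opt3-2 shoots and 0.0173% ± 0.00169 in wild-type shoots, and 0.0953% ± 0.0121 in opt3-2 roots and 0.0340% ± 0.000415 in wild-type roots (SD, n = 3 each). Of the 4 nuclear ribosomal RNA genes, none passed the test in shoots. In roots AT2G01010 and AT3G41768 were higher in opt3-2, with log2 fold changes of 0.60 and 0.57, and AT2G01020 and AT3G41979 were lower, with -0.53 and -0.55.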
